A study of Mus musculus with 4 samples.

Results

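The 32 genes described here carry fatty acids from the blood into the mitochondrial matrix of the newborn mouse heart and oxidise them there. They were chosen by role (uptake, storage, activation, the carnitine shuttle, beta oxidation, electron transfer and uncoupling). Earlier results of these data were known when the choice was made. The identifiers were mapped to mouse symbols, and all 32 genes were found among the 43346 identifiers of each library. All 32 were also among the 16009 genes that passed the filter on low counts. The study measured RNA from hearts of newborn mice at postnatal day 0 (P0) on an Illumina HiSeq instrument. Tissue was snap frozen, homogenised in TRIZOL and purified over RNA columns. Each genotype was profiled in duplicate, as wild type hearts of ICR background (WT1 and WT2) and MRTFA/B double knockout hearts of Mixed background (DKO1 and DKO2). MRTFA and MRTFB are coactivators of serum response factor that carry changes in actin assembly to gene expression. Genotype and strain background cannot be told apart, because each genotype has its own background. The labels name neither the alleles nor a Cre driver, and leave it unsaid if each library is a different animal. The p-values thus rest on a spread among 4 libraries that may be no more than technical.

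Fatty acids reach the cardiomyocyte bound to albumin or are released from lipoproteins by lipoprotein lipase. They are taken up, bound to carrier proteins, linked to coenzyme A and carried across the mitochondrial membranes as carnitine esters. Beta oxidation then removes acetyl-CoA units in repeated rounds of dehydrogenation, hydration, dehydrogenation and thiolysis, and its electrons pass through the electron transfer flavoprotein to ubiquinone. The heart turns from glucose and lactate to fatty acids around birth, and nuclear receptors of the PPAR and ERR families with the coactivator PGC-1alpha drive many of these genes. Hearts at P0 therefore sit within that switch.

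Total counts were 29460641 and 25205257 in WT1 and WT2, and 27328195 and 16175259 in DKO1 and DKO2. Mitochondrially encoded genes held 11.4% to 13.5% of them. Pearson's r of log levels over all genes tested was 0.992 between the wild type libraries and 0.978 between the double knockout libraries. Mrtfa stood at 9.06 and 11.1 TMM-adjusted CPM (read counts scaled to library size, here the unit of every level) in WT1 and WT2 and at 3.35 and 2.26 CPM in DKO1 and DKO2. Mrtfb stood at 46.9, 56.8, 46.0 and 49.6 CPM in the same order, so its reads did not separate the genotypes. The part of Mrtfb that was deleted is not in the labels, and reads from outside it check nothing. Libraries keep the order WT1, WT2, DKO1, DKO2 in all lists of values below.

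With both double knockout libraries set against both wild type libraries, 0 of the 32 genes fell and 0 rose at a Benjamini-Hochberg adjusted p under 0.05 in edgeR's quasi-likelihood test. Of all genes tested, 0.0625% fell and 0.0125% rose by the same rule. At an unadjusted p under 0.05, 7 of the 32 genes were lower and 0 higher, beside 8.63% lower and 8.70% higher among all genes. With no filter on low counts edgeR called 7 lower and 0 higher, where 3.15% of all genes were lower and 2.92% higher. DESeq2 called 1 gene, Ech1, lower and 0 higher, where it called 1.86% lower and 2.08% higher of the genes it could test. The fold change was negative for 29 of the 32 genes, as it was for 48.7% of all genes. The median log2 fold change was -0.43, beside 0.01 over all genes tested. Both double knockout libraries lay below both wild type libraries for 19 of the 32 genes (25.2% of all genes) and above both for 1, Pnpla2 (25.8% of all genes).

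The double knockout libraries were far from alike. In DKO1 the 32 genes summed to 93.0% of the wild type mean of the same sum, and in DKO2 to 64.6%. The median difference from the wild type mean was -0.16 on the log2 scale in DKO1 and -0.99 in DKO2, while the medians over all genes tested were 0.00 in each. DKO2 stood at least 2-fold below the wild type mean for 16 of the 32 genes, beside 5.24% of all genes, and DKO1 for 0, beside 2.87%. DKO2 lay below both wild type libraries for 29 genes (41.6% of all genes) and DKO1 for 20 (39.1%). DKO2 was the lowest of the 4 libraries for 28 genes and the highest for 3, Lpl, Pnpla2 and Echs1. It was below DKO1 for 28 genes, beside 50% of all genes, with a median log2 ratio of -0.91. These are 2 libraries of 1 genotype, so their difference has no test. In comparison, the median log2 ratio of WT2 to WT1 over the same genes was -0.10.

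Each double knockout library was also fitted alone against the wild type pair, which assumes that the lone library varies as the wild type libraries do. By adjusted p in these fits, DKO1 was lower for 3 of the 32 genes (Fabp3, Acot13 and Ech1) and higher for 1 (Slc27a1), where 4.46% of all genes were lower and 3.78% higher. DKO2 was lower for 26 and higher for 2 (Lpl and Pnpla2), where 8.13% were lower and 9.0% higher. Both fits use the same wild type libraries and are not independent of each other. The fits called 3 genes in the same direction, all lower, and 22 genes were called lower for DKO2 alone. The DKO1 call of Fabp3 was lost when the reads of a near-identical copy were added to it. Both differences are relative to the total RNA of a whole heart, in which fewer cells of a type and less RNA per cell cannot be told apart.

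**Figure D1:**
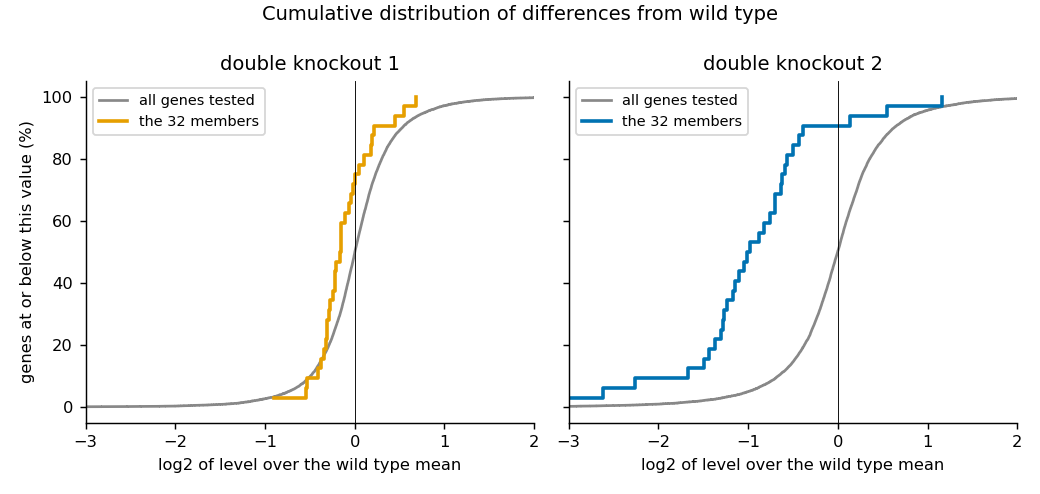
Cumulative distributions of the log2 ratio of each double knockout library to the wild type mean (horizontal axis) for the 32 genes (coloured line) and for all genes tested (grey line). The vertical axis gives the percent of genes at or below a value. The 32 genes lie near the grey line in double knockout 1 (median -0.16) and to its left in double knockout 2 (median -0.99). Ucp3 in double knockout 2 lies beyond the left edge.

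Uptake and intracellular binding comprised 4 genes. Cd36, the main long chain fatty acid translocase of the heart, stood at 1839, 1515, 1515 and 996 CPM. Lpl, the lipase that frees fatty acids from circulating lipoproteins, stood at 1473, 1448, 1468 and 2129 CPM. These 2 abundant genes thus lay on opposite sides of wild type in DKO2, Cd36 to 59.4% and Lpl to 146% of the wild type mean, while DKO1 overlapped the wild type values of Lpl and matched the lower of those of Cd36. In the DKO2 fit the log2 difference was -0.75 (SE 0.16, edgeR adjusted p = 0.0054) for Cd36 and 0.54 (SE 0.14, edgeR adjusted p = 0.014) for Lpl.

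Slc27a1, which encodes the fatty acid transport protein FATP1, stood at 60, 61.9, 83.0 and 28.4 CPM. The wild type libraries were close to each other, and the double knockout libraries lay on opposite sides of them. Both single library fits passed the threshold, with log2 differences of 0.44 (SE 0.11, edgeR adjusted p = 0.028) in DKO1 and -1.10 (SE 0.13, edgeR adjusted p = 6.9e-05) in DKO2. The fit of all 4 libraries gave -0.12 (SE 0.49), a value that describes neither library. Fabp3, the heart fatty acid binding protein, stood at 121, 98.9, 75.6 and 34.5 CPM, with both double knockout libraries below both wild type libraries. Its log2 difference was -0.54 (SE 0.14) in DKO1 and -1.68 (SE 0.15) in DKO2. With its near-identical copy counted in, as described below, the DKO1 difference was -0.29 (SE 0.13, edgeR adjusted p = 0.21) and no longer passed.

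Of the 2 genes of the lipid droplet, 1 was much lower and 1 higher in DKO2. Plin5, a perilipin that tethers lipid droplets to mitochondria in oxidative muscle, stood at 32.4, 25.4, 23.2 and 4.71 CPM. DKO2 held 16.3% of the wild type mean (log2 difference -2.62, SE 0.22, edgeR adjusted p = 8.2e-06), from 77 reads. Pnpla2, the adipose triglyceride lipase that opens triglyceride breakdown, stood at 76.1, 77.1, 87.2 and 171 CPM. It reached 223% of the wild type mean in DKO2 (log2 difference 1.16, SE 0.11, edgeR adjusted p = 1.3e-05) and 114% in DKO1, where it did not pass.

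Activation and its reversal were covered by 3 genes. Acsl1, the main long chain acyl-CoA synthetase of the heart, stood at 1293, 1103, 987 and 464 CPM, and Acot2, a mitochondrial thioesterase that frees fatty acids from coenzyme A, at 176, 145, 132 and 33.5 CPM. For both, DKO1 lay a little under the lower wild type library and DKO2 far under it, at 38.8% of the wild type mean for Acsl1 and 20.9% for Acot2. Acot13, a smaller thioesterase of another family, was different: it stood at 95.2, 84.5, 62.4 and 66.6 CPM. The double knockout libraries were alike for Acot13, at 69.5% and 74.1% of the wild type mean, and each passed the threshold alone.

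The carnitine shuttle was lower in DKO2 at each of its 4 genes and in DKO1 at none by the single library fits. Cpt1a, the liver-type carnitine palmitoyltransferase of the outer membrane, which the newborn heart still uses, stood at 233, 242, 277 and 97.6 CPM. Cpt2, the inner membrane enzyme that reforms the acyl-CoA, stood at 149, 155, 135 and 54.1 CPM. DKO2 thus held 41.0% of the wild type level of Cpt1a and 35.6% of that of Cpt2, and was the lowest library for both. The log2 differences in the DKO2 fit were -1.29 (SE 0.13) for Cpt1a and -1.49 (SE 0.13) for Cpt2.

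Mlycd, the malonyl-CoA decarboxylase that removes the inhibitor of CPT1, stood at 67.1, 60.5, 61.2 and 30.9 CPM. Cpt1b, the muscle-type enzyme, was listed at 7.12, 6.59, 6.17 and 3.73 CPM. That level is uncertain, since the readthrough gene Gm44502 covers 81.4% of the exon bases of Cpt1b on the same strand. Cpt1b was the only gene of the 32 within 10 Mb of a targeted gene, 8.23 Mb from Mrtfa on chromosome 15. Per kilobase of transcript, the ratio of the Cpt1a to the Cpt1b level was 22.0, 24.7, 30.1 and 17.5, and the same uncertainty applies to it.

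**Figure D2:**
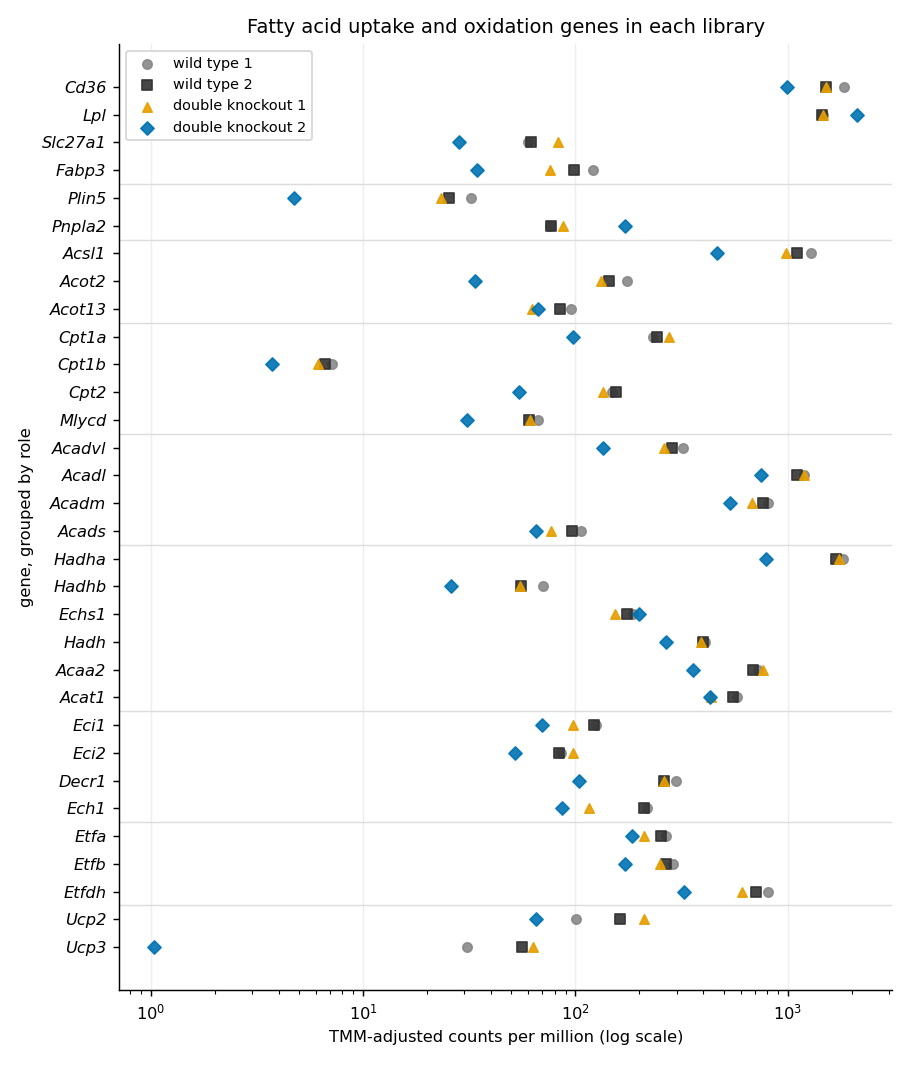
TMM-adjusted CPM (log scale, horizontal axis) of the 32 genes, grouped by role from uptake (top) to uncoupling (bottom), with 1 point for each of the 4 libraries. Double knockout 2 (blue diamonds) is the lowest library for 28 genes, and its lowest value is that of Ucp3 (1.04 CPM).

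The 4 acyl-CoA dehydrogenases take the first step of each round, sorted by chain length. Acadvl, for very long chains, stood at 321, 285, 261 and 135 CPM. Acadl, for long chains, stood at 1190, 1105, 1189 and 748 CPM, and Acadm, for medium chains, at 810.1, 769, 678 and 535 CPM. Acads, for short chains, stood at 107, 96.4, 76.7 and 65.2 CPM. The share of the wild type level left in DKO2 was 44.6% for Acadvl and 64.2% to 67.7% for the other three. All 4 passed in the DKO2 fit and 0 in the DKO1 fit. For Acads the difference between DKO1 (75.5% of wild type) and DKO2 (64.2%) was small beside that of Acadvl (86.1% and 44.6%). The Acadvl counts carry a limit: 42.9% of its exon bases overlap Dvl2 on the other strand, and no source says if the counting used strand.

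The trifunctional protein, which runs the last 3 steps on long chains, is encoded by Hadha and Hadhb. The genes lie head to head on chromosome 5, Hadha at chr5:30118304-30155162 on the minus strand and Hadhb at chr5:30155248-30184593 on the plus strand. Hadha stood at 1827, 1687, 1737 and 791 CPM and Hadhb at 70.3, 55.7, 54.7 and 26.1 CPM. Both subunits were near the wild type level in DKO1, at 98.9% and 86.8%, and similarly low in DKO2, at 45.1% and 41.4%. The sequence between the genes is shown because both are read outward from it; it is taken from RefSeq build GRCm38.p6 (mm10) at chr5:30155163-30155247, plus strand, and holds 0 matches to the motifs searched further on, so it has no capitals.
Hadha-Hadhb: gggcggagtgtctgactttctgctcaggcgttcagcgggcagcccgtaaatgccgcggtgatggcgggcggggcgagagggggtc

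Hadhb and Fabp3 have near-identical processed pseudogenes, under which the files list most of the reads of each pair. How reads with several matches were counted is not known, so which locus they came from was not tested, and the levels of these genes are uncertain. Gm13910 on chromosome 2 (chr2:108948806-108950233) matched the Hadhb transcript at 99.8% of 1428 bases and held 88.2% to 89.7% of the reads assigned to either. Fabp3-ps1 on chromosome 10 (chr10:86731987-86732388) matched Fabp3 at 99.3% of 402 bases and held 81.8% to 87.1%. A stretch of each pair, from GENCODE M21 transcripts in the sense direction, shows how few bases part them; the capital letter in each marks the only base in the stretch that differs.
Fabp3: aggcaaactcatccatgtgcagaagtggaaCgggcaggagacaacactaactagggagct
Fabp3-ps1: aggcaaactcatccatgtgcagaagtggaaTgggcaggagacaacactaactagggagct
Hadhb: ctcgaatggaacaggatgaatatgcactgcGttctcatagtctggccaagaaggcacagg
Gm13910: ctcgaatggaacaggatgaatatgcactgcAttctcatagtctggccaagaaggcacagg

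Both pseudogenes, like their genes, were lowest in DKO2 and lower in DKO1 than in either wild type library. Reads of 1 locus may be listed under the other, so this is no separate evidence. Fabp3-ps1 was listed at 543, 574, 473 and 232 CPM, and Gm13910 at 543, 483, 429 and 194 CPM. With gene and copy summed, the log2 difference from the wild type mean was -0.28 in DKO1 and -1.33 in DKO2 for Fabp3, and -0.25 and -1.39 for Hadhb. The sums brought the per kilobase ratio of Hadha to Hadhb from between 13.2 and 16.2 down to between 1.52 and 1.83 in the 4 libraries. Acot2 had a coding neighbour on chromosome 12, Acot1, with 95.1% identity over 1274 bases. Acot1 stood at 72, 62.4, 84.7 and 14.9 CPM. In DKO1 it was thus above both wild type libraries, where Acot2 lay below both. The sum of the pair differed by -0.07 in DKO1 and -2.23 in DKO2.

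**Figure D3:**
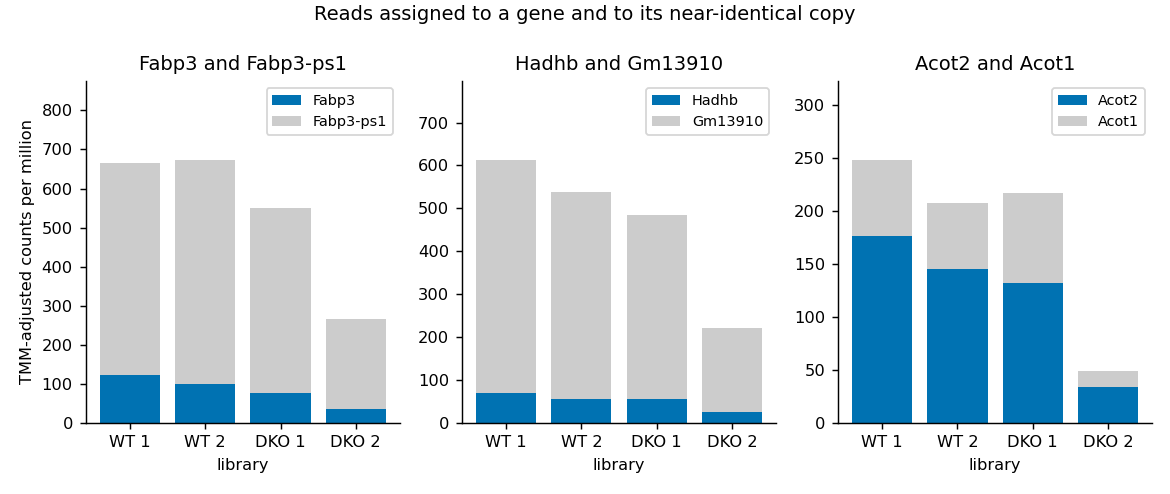
TMM-adjusted CPM (vertical axis, from 0) of Fabp3, Hadhb and Acot2 (blue) stacked with their closest copy (grey) in each of the 4 libraries (WT wild type, DKO double knockout). The copy takes most of the reads for Fabp3 and Hadhb, and both parts of every bar are lowest in DKO 2.

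The other 4 genes of the later steps did not move as 1 block. Hadh, the short chain hydroxyacyl-CoA dehydrogenase, stood at 408, 400.4, 392 and 268 CPM. Acaa2, the mitochondrial 3-ketoacyl-CoA thiolase, stood at 727, 689, 762 and 359 CPM, so that DKO1 was above both wild type libraries and DKO2 at 50.7% of their mean. Echs1, the short chain enoyl-CoA hydratase, stood at 187, 175, 154 and 199.6 CPM. Echs1 was among the 4 genes that passed in neither single library fit, together with Acat1, Ucp2 and Ucp3. Acat1, the thiolase of the last round and of ketone use, stood at 578, 553, 438 and 433 CPM. Both double knockout libraries lay below both wild type libraries for Acat1, by nearly the same amount (77.4% and 76.5% of wild type), and the fit of all 4 libraries gave -0.38 on the log2 scale (SE 0.11), with an edgeR adjusted p of 0.19.

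Unsaturated fatty acids need auxiliary enzymes that move or reduce their double bonds. Among these, Ech1, a dienoyl-CoA isomerase, had the lowest p of the 32 genes in the fit of all 4 libraries. It stood at 219, 211, 116 and 87.0 CPM, at 53.8% of wild type in DKO1 and 40.5% in DKO2. The wild type libraries were close and both double knockout libraries lay far below them. The log2 fold change was -1.08 (SE 0.16), with an adjusted p of 0.12 in edgeR and 8.5e-06 in DESeq2, and over 15 alternative fits the adjusted p ranged from 9.2e-13 to 0.97. Each double knockout library passed alone, with log2 differences of -0.90 (SE 0.12) in DKO1 and -1.31 (SE 0.13) in DKO2.

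Decr1, the dienoyl-CoA reductase, stood at 299.6, 263, 261 and 104 CPM. Eci1 and Eci2 are enoyl-CoA isomerases. Eci1 stood at 126, 122, 97.6 and 70.0 CPM, and Eci2 at 85.3, 84.1, 97.2 and 51.9 CPM. For Decr1 and Eci2, DKO1 was next to or above the wild type libraries and DKO2 well below them, whereas for Eci1 and Ech1 DKO1 lay between wild type and DKO2. All 4 genes passed in the DKO2 fit and Ech1 alone in the DKO1 fit.

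The electron transfer flavoprotein and its dehydrogenase pass the electrons of the first step to ubiquinone. The subunits Etfa and Etfb stood at 268, 253, 211 and 185 CPM and at 289, 267, 249.8 and 171 CPM. Etfdh, the flavoprotein dehydrogenase of the inner membrane, stood at 812, 713, 612 and 325 CPM. For all 3 genes DKO1 lay between wild type and DKO2. Both double knockout libraries were thus below both wild type libraries, as they were for 25.2% of all genes. DKO2 held 70.9% of the wild type level of Etfa, 61.5% of Etfb and 42.6% of Etfdh, and all 3 passed in its fit. Exons of Gm45233 on the same strand cover 53.0% of the exon bases of Etfb, so its level is uncertain.

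The uncoupling proteins spread most. Ucp3, a mitochondrial carrier of muscle that responds to fatty acid supply, stood at 30.7, 56.1, 63.5 and 1.04 CPM. Its neighbour Ucp2 stood at 101, 163, 212 and 65.5 CPM. Ucp3 in DKO2, from 17 reads, was at 2.39% of the wild type mean, the lowest share among the 32 genes, while DKO1 was above both wild type libraries. The log2 difference in the DKO2 fit was -5.38 (SE 0.99, edgeR adjusted p = 0.14) and did not pass; the wild type libraries themselves differed by 0.87 on the log2 scale. Per kilobase of transcript, the ratio of Ucp2 to Ucp3 was 2.02, 1.78, 2.05 and 38.6. It was thus close to constant over 3 libraries, in which both genes varied, and departed from that in DKO2. Ucp3 lies at chr7:100472990-100486432 and Ucp2 at chr7:100493337-100502020, both on the plus strand.

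**Figure D4:**
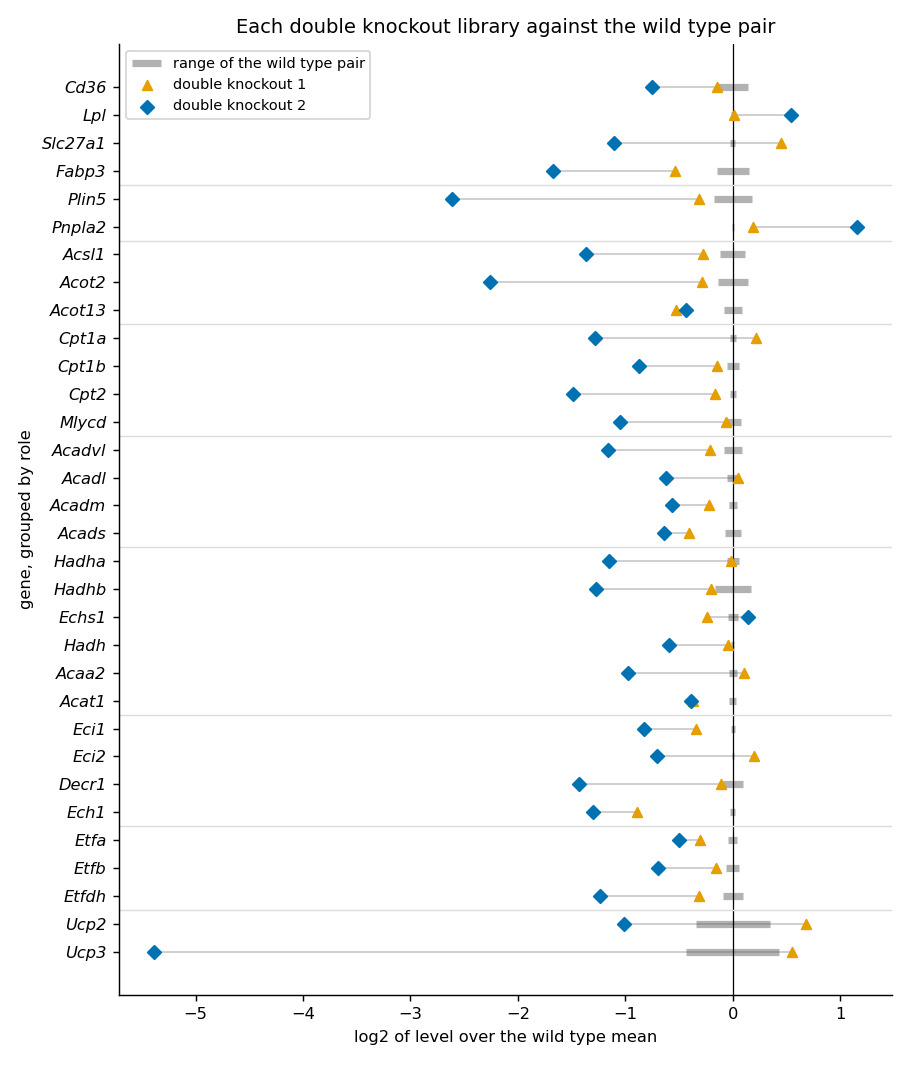
Log2 ratio of each double knockout library to the wild type mean (horizontal axis) for the 32 genes grouped by role. Triangles are double knockout 1, diamonds double knockout 2, and grey bars span the wild type pair. Most diamonds lie well left of the triangles. Acot13, Acat1, Etfa and Acads have the libraries close together, and Lpl, Pnpla2 and Echs1 have double knockout 2 above wild type.

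Levels per kilobase of transcript give the order of the genes in wild type hearts. Acadl (599 CPM per kilobase), Cd36 (493), Acaa2 (467) and Hadha (437) were the highest, and Ucp3 (17.7), Plin5 (14.5) and Cpt1b (2.37) the lowest. The order in DKO1 was close to this, with Acadl, Acaa2 and Cd36 leading. In DKO2, Lpl led with 517 CPM per kilobase, followed by Acadl with 390.4 and Cd36 with 293. The ranks of Fabp3 and Hadhb are without the reads listed under their copies. Those of Cpt1b and Etfb are uncertain too, since a gene on the same strand covers 81.4% and 53.0% of their exon bases.

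Promoters were searched because so many of the genes were low in the same library. RefSeq windows from 250 bases before to 50 bases after the start were at hand for 26 of the 32 genes. Those of Acaa2, Lpl, Acat1, Cpt1b, Acot13 and Decr1 were not used here. The core letters to which nuclear receptors bind, AGGTCA, on either strand, were found at 7 genes (Acadm, Acadvl, Cd36, Cpt1a, Echs1, Plin5 and Ucp3), in 26.7% of their 30 windows and in 16.3% of 32851 windows of all genes. The ERR response element TCAAGGTCA, which contains the core letters, was in 0 of the 30 and in 0.423% of all windows. The direct repeat DR1, AGGTCANAGGTCA, to which PPAR and RXR bind as a pair and which holds the core letters 2 times, was in 0 of the 30 and in 0.0396% of all windows. A match is a string of letters and not a bound site.

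The sequences before the start of 3 of the genes with the core letters are shown, from the gene lowest in DKO2 (Ucp3, 2.39% of wild type) through Plin5 (16.3%) to 1 of the least lowered (Acadm, 67.7%). Capitals mark the core letters or their reverse complement. The sequences are from RefSeq build GRCm38.p6 (mm10), are read on the strand of the gene and end before the GENCODE gene begins. Ucp3 is at chr7:100472741-100472989 on the plus strand, Plin5 at chr17:56117597-56117798 on the minus strand and Acadm at chr3:153944644-153944893 on the minus strand.
Ucp3: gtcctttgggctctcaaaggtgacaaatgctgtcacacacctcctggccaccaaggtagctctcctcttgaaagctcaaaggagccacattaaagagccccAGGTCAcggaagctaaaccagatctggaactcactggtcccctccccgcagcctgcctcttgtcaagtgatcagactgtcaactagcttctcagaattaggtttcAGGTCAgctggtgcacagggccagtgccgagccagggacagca
Plin5: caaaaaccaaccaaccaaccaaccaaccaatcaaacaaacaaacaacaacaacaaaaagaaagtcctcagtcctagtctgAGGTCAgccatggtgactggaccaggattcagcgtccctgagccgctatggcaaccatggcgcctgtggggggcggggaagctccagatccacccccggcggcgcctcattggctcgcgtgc
Acadm: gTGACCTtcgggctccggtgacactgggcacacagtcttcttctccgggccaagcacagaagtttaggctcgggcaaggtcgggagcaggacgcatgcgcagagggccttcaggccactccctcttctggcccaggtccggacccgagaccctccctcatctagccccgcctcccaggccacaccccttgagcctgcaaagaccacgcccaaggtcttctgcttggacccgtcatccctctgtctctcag
Echs1, which also held the core letters, had DKO2 at 110.2% of the wild type mean. Genes with the letters thus lay at both ends of the order in DKO2.

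A list of regulators of the pathway was read in the same way. For this list and those below, counts in 1 library are to be read beside the shares of all genes given above with the single library fits. A count near those shares is no result about its list. Of the list of 18 nuclear receptors and coregulators, 0 passed in the fit of all 4 libraries, 3 were lower in DKO1, and in DKO2 1 was lower and 4 were higher. Ppara, the receptor that senses fatty acids in the heart, stood at 30.7, 24.2, 15.7 and 33.6 CPM, and Ppargc1a, which encodes PGC-1alpha, at 322, 278, 197 and 434 CPM. For both genes DKO1 was the lowest library and DKO2 the highest, whereas DKO2 lay below DKO1 for 28 of the 32 genes. Over the 18 regulators DKO2 lay below DKO1 for 6, beside 50% of all genes. Ppara lies 4.54 Mb from Mrtfa on chromosome 15, and its level and the targeted locus cannot be told apart.

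Esrra, which encodes ERRalpha, stood at 59.1, 52.4, 42.5 and 49.2 CPM, and Esrrg, which encodes ERRgamma, at 91.8, 82.6, 86.2 and 103 CPM. Neither passed in any of the 3 fits. By the smallest p, the list was led by Ppargc1b (31.4, 28.7, 21.8 and 17.9 CPM), Nrip1 (42.6, 45.3, 54.4 and 55.5 CPM) and Rxrb (29.0, 31.9, 35.9 and 44.5 CPM). Ppargc1b, a coactivator related to PGC-1alpha, passed as lower in the DKO2 fit but not in the DKO1 fit (edgeR adjusted p = 0.063), and Rxrb, a partner of the PPARs, passed as higher in the DKO2 fit. Klf15, a regulator of lipid use in heart and muscle named here after its values were seen, stood at 21.2, 12.7, 17.5 and 69.6 CPM, at 410.1% of wild type in DKO2.

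Another list held 13 further genes known to respond to PPARs, of which 12 were tested. In DKO2, 7 of the 12 were lower and 1 was higher, and in DKO1 0 were lower and 3 were higher. Their median log2 difference was 0.27 in DKO1 and -0.87 in DKO2. In the fit of all 4 libraries the fold change was negative for 6 of the 12 and positive for 6. Cyp4b1, Mgll and Fabp4 had the smallest p in that fit. At an unadjusted p under 0.05 in edgeR, 0 were lower and 1, Cyp4b1, was higher. Mgll, the monoglyceride lipase, stood at 123, 109.9, 92.5 and 53.3 CPM.

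Within this list, 3 genes named after their values were seen also differed between the libraries. Angptl4, a secreted inhibitor of lipoprotein lipase, stood at 130.3, 108, 115 and 5.87 CPM, 4.93% of wild type in DKO2. Pdk4, a kinase that shuts pyruvate out of the citric acid cycle, stood at 487, 485, 661 and 225 CPM, and Txnip, which restrains glucose uptake, at 722, 705, 1168 and 459.7 CPM. Pdk4 and Txnip passed in both single library fits, higher in DKO1 and lower in DKO2.

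**Figure D5:**
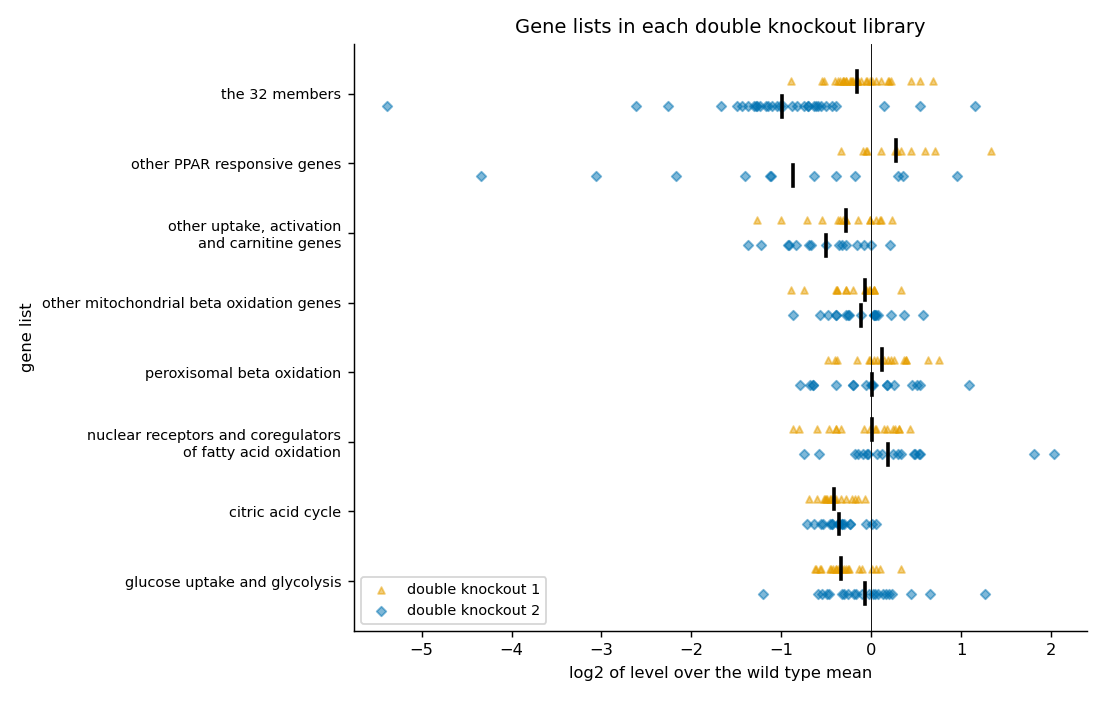
Log2 ratio of each double knockout library to the wild type mean for every tested gene of 8 gene lists (1 point a gene, black ticks are medians, triangles double knockout 1, diamonds double knockout 2). The medians of the 32 genes (-0.16 and -0.99) and of the other PPAR responsive genes (0.27 and -0.87) differ between the libraries, while those of the citric acid cycle (-0.42 and -0.36) are alike.

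Neighbouring steps of metabolism differed from the 32 genes in this respect. The 18 citric acid cycle genes were all below both wild type libraries in DKO1 (39.1% of all genes) and 16 of them in DKO2 (41.6%). Their medians were -0.42 and -0.36. Both double knockout libraries lay below both wild type libraries for 16 of the 18 (25.2% of all genes). At an unadjusted p under 0.05 in edgeR 14 of the 18 were lower (8.63% of all genes), and DESeq2 called 4 lower (1.86%). Each library alone was lower for 6 of them and higher for 0. Ogdh, a subunit of the oxoglutarate dehydrogenase, stood at 808, 793, 527 and 488 CPM, and Sdha, the flavoprotein of succinate dehydrogenase, at 1503, 1456, 1026 and 1020 CPM. Over the 18 genes the log2 ratio of DKO2 to DKO1 ran from -0.16 (Dld) to 0.24 (Sdhb), whereas its median over the 32 genes was -0.91. Of 17 other tested genes of mitochondrial beta oxidation, DKO1 was lower for 2 and higher for 0, and DKO2 lower for 3 and higher for 1. Their medians were -0.07 and -0.12. The 2 with the smallest p were Nudt7 (32.6, 33.6, 19.7 and 18.0 CPM) and Ivd (185, 200.4, 104 and 139 CPM), an enzyme of leucine breakdown. Neither is an enzyme of mitochondrial fatty acid oxidation, so the list reaches beyond that pathway.

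Among 16 other genes of uptake, activation and carnitine supply, DKO1 was lower for 3 and DKO2 for 7, with 0 higher in either. Fabp5, a fatty acid binding protein of endothelial and other cells, stood at 56.5, 62.6, 24.7 and 31.5 CPM. DESeq2 called Fabp5 lower, and DKO1 was the lower of the double knockout libraries. Of 18 tested peroxisomal genes, DKO1 was lower for 0 and higher for 1, and DKO2 lower for 5 and higher for 2. Hacl1, of peroxisomal alpha oxidation, stood at 8.07, 10.2, 15.4 and 19.5 CPM and was called higher by DESeq2. Ketone use was marked by Oxct1 at 521, 503, 264 and 404 CPM, lowest in DKO1.

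Of 22 genes of glucose uptake and glycolysis, DKO1 was lower for 5 and higher for 0, and DKO2 lower for 4 and higher for 3. Slc2a1, the glucose transporter GLUT1 of the fetal heart, named after its values were seen, stood at 26.8, 22.9, 16.9 and 59.7 CPM. Of 19 genes of fatty acid and triglyceride synthesis, 1 was lower in DKO1, and 4 were lower and 3 higher in DKO2. Elovl6, a fatty acid elongase, stood at 18.6, 16.6, 11.4 and 8.87 CPM, and Scd1, the stearoyl-CoA desaturase, at 5.07, 5.75, 7.16 and 14.2 CPM. Of 13 genes of AMPK and insulin signalling, 0 passed in DKO1, and 1 was lower and 4 were higher in DKO2, among them Irs1 (39.6, 32.1, 39.0 and 62.3 CPM). Of 10 tested genes of the lipid droplet, 4 were lower and 1, Plin3 (78.8, 84.1, 101 and 140.4 CPM), was higher in DKO2. Counted once each, 165 genes of these lists were tested, 0 passed in the fit of all 4 libraries in either direction, and DESeq2 called 10 lower and 1 higher.

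Levels of cell type markers are given beside these results; their part in them was not tested. The summed level of 10 cardiomyocyte markers was 70648 and 63963 CPM in WT1 and WT2 but 56834 and 53694 CPM in DKO1 and DKO2, log2 differences of -0.24 and -0.33, and 0 of the 10 were at 0. Most of that difference was Actc1, the cardiac actin, at 17537, 12642, 6688 and 6282 CPM; without it the sums differed by -0.06 and -0.14. Of the 10, 3 were above the wild type mean in DKO1 and 2 in DKO2. Sums of 10 endothelial markers differed by -0.05 and -0.11, those of 8 fibroblast markers by -0.31 and 0.05, and those of 10 macrophage markers by 0.36 and 0.30. All 10 macrophage markers were at or above the wild type mean in DKO1, but 4 of them were below it in DKO2, and 4 of the 8 fibroblast markers lay on opposite sides of it in DKO1 and DKO2. The 8 atrial markers summed to 686, 1066, 1611 and 1533 CPM, with DKO1 and DKO2 higher than the wild type mean by 0.88 and 0.81. For the 8 erythroid markers the differences were -0.50 and 0.30. Most of that sum was Hbb-bs, at 586, 415, 373 and 665 CPM, and without it the differences were -0.77 and -0.11. The erythroid and fibroblast sums were thus higher in DKO2 than in DKO1, while the cardiomyocyte, endothelial, macrophage and atrial sums were close in them.

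Fat tissue attached to the heart would carry several of the same genes. The 9 white adipocyte markers summed to 24.5, 29.9, 33.4 and 11.6 CPM. Nearly all of this was Lipe, the hormone-sensitive lipase, at 24.1, 29.3, 32.6 and 11.2 CPM; the other 8 were under 1 CPM in all libraries, with Lep, Retn and Cfd at 0. The 8 brown adipocyte markers summed to 112, 114, 81.4 and 69.1 CPM, and 3 of them, Ucp1, Elovl3 and Zic1, were under 1 CPM in all libraries. Nearly all of the sum was Prdm16, Cidea, Dio2, Cox7a1 and Cox8b, and the cells these reads came from were not tested. Liver markers summed to between 0.705 and 2.08 CPM, with 6 of 7 under 1 CPM. Cardiomyocyte markers were thus abundant in all 4 libraries, and those of liver near 0.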

How the data were processed

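RNA levels were measured in 4 libraries of whole newborn hearts, 2 of each genotype as the labels give it. The authors deposited raw read counts per gene, for which the submitters' processing notes name HTSeq, build mm10 and DESeq 1.10.1. No row was without a gene (0 in each library). Not given in the sources used here: the aligner, annotation release, strand setting and treatment of reads with several matches. GENCODE M21 gave symbols and positions for 42462 identifiers.

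From the counts, edgeR 4.0.16 (R 4.3.3; filterByExpr defaults, TMM factors, robust quasi-likelihood test, Benjamini-Hochberg over all genes, threshold 0.05) was fitted to all 4 libraries and to each double knockout library with the wild type pair. Levels are TMM-adjusted CPM. Alternatives were DESeq2 1.42.0, limma 3.58.1 (voom), other scaling and filters, a replicate block and leaving out each library; merging of copies of at least 95% identity and a crossed replicate block were added after seeing the data. Depth of 16175259 to 29460641 counts sets the counting precision. The scripts were tested on simulated data.

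The 32 genes, the other lists and the tests were chosen with earlier results of these data known. The genes named are the 32, Mrtfa, Mrtfb, Ppara, Ppargc1a, Esrra, Esrrg and up to 3 genes of each list with the smallest p; others are said to be named after their values were seen, and some genes of the lists are not reported here. Near copies were sought with BLAST (at least 90% identity over 250 bases). The labels do not say if replicate numbers pair the libraries, and the main fit used no pairing. The deviations of libraries with the same number correlated at -0.105, a value that cannot decide it.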

Additional observations from a re-analysis of the deposited data

How the results depend on the processing

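The 32 genes gave 0 lower and 0 higher calls in the fit of all 4 libraries. Without a filter on low counts 7 were lower, and with DESeq2 1 was lower. Leaving out 1 library at a time gave 0 to 26 lower and 0 to 2 higher calls. Without double knockout replicate 1 there were 26 lower and 2 higher, and without double knockout replicate 2 there were 3 and 1; leaving out either wild type library gave 0. For the other lists DESeq2 called 10 lower and 1 higher, and leaving out a library gave 0 to 41 lower and 0 to 19 higher. The median of the 32 genes in double knockout library 1 ranged from -0.25 (without wild type replicate 2) to -0.10 (without wild type replicate 1) on the log2 scale. Leaving out a library also leaves fewer samples in the fit. Why the calls changed was not tested for any of these settings.

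The replicate block called 0 of the 32 genes and 0 of the other lists in either direction, and 2 lower and 0 higher of all genes, where the fit without it called 10 and 2. A crossed pairing, added after seeing the data, called 3 lower and 0 higher. Ucp2 turned from 0.08 to -0.11 with the replicate block, -0.12 with the crossed block and -0.11 with limma-voom. Leaving out 1 library at a time turned the sign of 8 genes, and their log2 fold changes ranged as follows, the cause not being tested: Slc27a1 from -1.10 to 0.44, Cpt1a from -1.29 to 0.22, Acadl from -0.62 to 0.049, Echs1 from -0.24 to 0.14, Acaa2 from -0.98 to 0.10, Eci2 from -0.71 to 0.20, Ucp2 from -1.01 to 0.68, Ucp3 from -5.38 to 0.55. Merging the near copies changed no call in the fit of all 4 libraries; in the fits of single libraries, added after seeing the data, Fabp3 lost its call in DKO1 (2 lower calls in place of 3), and DKO2 kept 26 lower and 2 higher. DKO2, with 16175259 counts, limits the precision of Plin5, Cpt1b and Ucp3.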
